A study of Mus musculus with 12 samples.

Results

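The genes described here encode the chains of collagens, laminins and nidogens, the main structural proteins of the extracellular matrix. They were chosen by symbol: every gene named as a collagen chain, as a laminin alpha, beta or gamma chain, or as Nid1 or Nid2. The choice found 57 genes among the 31675 that have an entry, which may be 0, for all 12 libraries, and each had the same Entrez ID in every table. Of these, 11 are fibrillar collagens, 19 are basement membrane genes (6 type IV collagen chains, 11 laminin chains and 2 nidogens) and 27 are other collagens. The study measured RNA of male mouse germline cells by SC3-seq, which reads the 3′ ends of transcripts. There were 6 groups of 2 libraries each. Cultured germline stem cells (GSCs) of the line Acrosin-EGFP; beta-Actin-EGFP (AAG) were wild type (WT) or Stag3 knockout (KO), the latter as 2 lines, KO1 and KO2, and all 6 of these libraries carry both EGFP transgenes. Germ cells from testis carried Vasa-RFPTg/0 and came from 3 ages: days 16 and 17 of embryonic development (E16 and E17) and day 7 after birth (P7). STAG3 is a subunit of cohesin, the ring complex that shapes chromatin loops. Nothing in the labels says that the 2 libraries of a group came from separate cultures or animals, so p-values reflect the spread between these libraries alone, which may be technical.

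Fibrillar collagens wind from chains into the rope-like fibers of connective tissue and cartilage. Basement membranes are thin sheets in which a laminin network and a type IV collagen network are linked, among other proteins, by nidogens. In the testis such a sheet surrounds the seminiferous cords, is made by the supporting Sertoli cells and the peritubular myoid cells, and is the surface on which spermatogonial stem cells sit. Stem cell cultures of this kind are commonly held on fibroblast feeder layers or on laminin, but the sources used here do not give the culture of these GSCs.

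The libraries held between 1938644 and 4596607 counts, of which 1860 to 5558 fell on the 57 genes. In RPM, counts per 1000000 counts of genes outside the mitochondrial genome, 1 count was worth between 0.249 and 0.578. Values are not divided by transcript length, so levels are compared between libraries and not between genes. The targeted gene Stag3 was at 385 and 420 RPM in WT, at 295 and 304 in KO1 and at 137 and 152 in KO2, and fell by 0.48 ± 0.09 (standard error, SE) in KO1 and by 1.52 ± 0.09 in KO2 on the log2 scale (edgeR's quasi-likelihood test with Benjamini-Hochberg adjustment, adjusted p = 1.21e-05 and 6e-28). Transcript ends of Stag3 were thus still counted in both lines, and where the deletion lies is not given in the sources used here, so this check says little about the protein. The 6 germ cell genes Ddx4, Dazl, Mael, Tdrd1, Dnd1 and Sycp3 summed to 2613 to 3731 RPM over the 12 libraries. Genes of other testis cells were also counted, most of all in the E16 and E17 libraries: the Sertoli cell list summed to 142 to 171 RPM there, 67.4 to 102 at P7 and 32.9 to 63.9 in GSCs, while Amh, which defines fetal and neonatal Sertoli cells, was at 0 in all 12. In bulk RNA, fewer cells of a type and less RNA per cell cannot be told apart. The P7 tables were made with another gene list than the others, so P7 and that processing cannot be told apart either.

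The summed level of the 57 genes was 766 ± 15.8 RPM in WT GSCs (SD, n = 2), 659 ± 14.2 in KO1, 737 ± 45.1 in KO2, 1650 ± 151 at E16, 2887 ± 30.5 at E17 and 1011 ± 18.8 at P7. The basement membrane genes made up the larger part of this sum in GSCs, at 493 and 485 RPM in the WT libraries, against 121 and 128 for the fibrillar collagens. At E17 the fibrillar collagens stood at 905 and 896 RPM and the basement membrane genes at 847 and 803. At P7 the fibrillar sum was 168 and 167 RPM and the basement membrane sum 682 and 674. The number of genes detected was 41 to 49 of 57 in GSC libraries, 55 to 57 in fetal libraries and 49 to 52 at P7. Of all 31675 genes, 15318 to 15906 were detected in GSC libraries, 19435 to 21384 in fetal libraries and 17401 to 17429 at P7. The fetal libraries thus detected the most genes over all genes too. A group mean of 10 RPM or more was reached by 49 of the 57. The 8 that stayed below it were Col4a3, Col4a5, Col4a6, Col8a1, Col8a2, Col10a1, Col15a1 and Col20a1, whose highest value in any library was 7.51 RPM, in Col4a5.

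**Figure D1:**
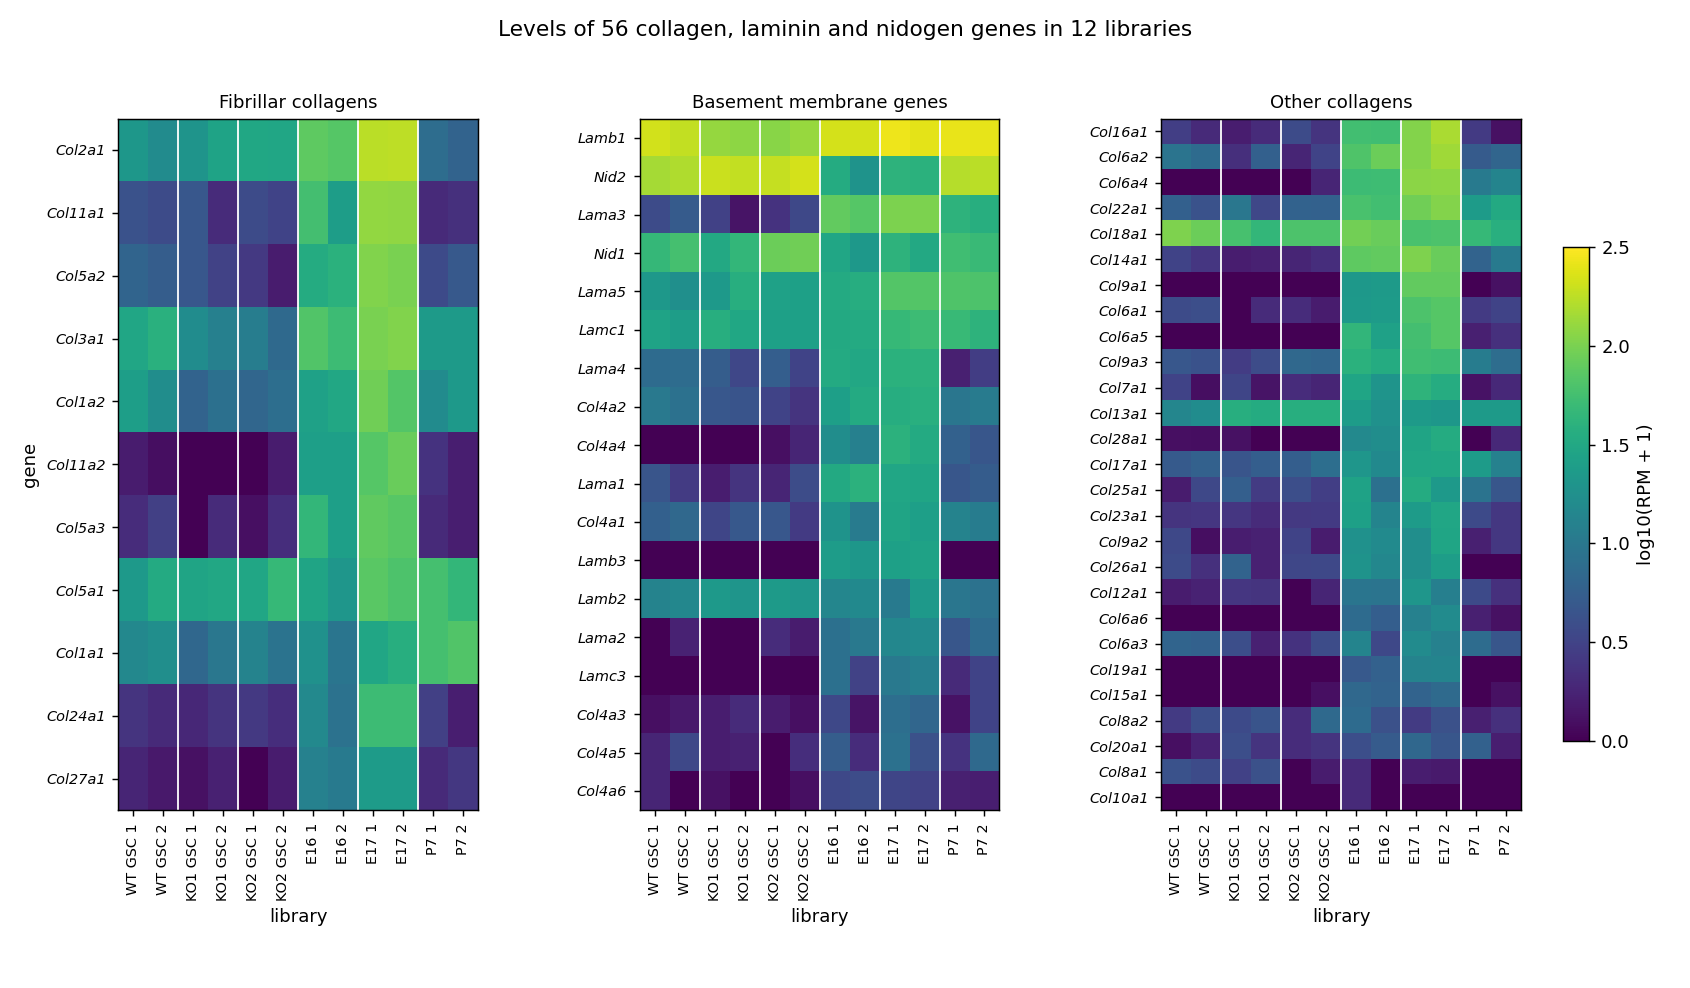
Level of 56 of the 57 genes (rows, by class) in each of the 12 libraries (columns, with group and replicate number), as log10 of RPM plus 1. Lamb1 is bright in all 12 columns, Nid2 is brightest in the GSC and P7 columns, and most fibrillar and other collagens are bright only in the E16 and E17 columns.

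Knockout of Stag3 was compared with WT in the GSCs, first as the mean of both lines. Chains of the fibrillar collagens I, III and V and of collagen VI were lower in the knockout GSCs, as were Col4a2, Col18a1 and the laminin chain Lamb1, while Col13a1, Lamb2 and Nid2 were higher. Of the 27 members with enough counts to be tested, 9 fell and 3 rose at an adjusted p under 0.05 (edgeR's quasi-likelihood test with Benjamini-Hochberg adjustment over 11890 genes). Over all genes tested, 19.2% were called, 10.6% lower and 8.64% higher, against 12 of 27 members, 33.3% lower and 11.1% higher. The median log2 fold change of the 27 was -0.31, and that of all genes was 0.00. Neither value bears on the 30 members whose counts were too low, 10 of which were at 0 in both WT libraries.

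Among the fibrillar collagens, 4 of the 7 tested fell: the type I chains Col1a1 and Col1a2, the type III chain Col3a1, and Col5a2 of type V. Col1a2 was at 24.2 and 15.7 RPM in WT, at 5.30 and 7.33 in KO1 and at 5.67 and 6.94 in KO2, so that both WT libraries lay above all 4 knockout libraries. Its log2 fold change was -1.71 ± 0.27 (SE, edgeR adjusted p = 3e-07). Col3a1 was at 29.1 and 37.4 RPM in WT, 15.6 and 11.2 in KO1 and 10.5 and 6.10 in KO2, again with no overlap, and fell by 1.70 ± 0.21 on the log2 scale (edgeR adjusted p = 2.2e-10). Col1a1 was at 13.6 and 16.2 RPM in WT, 5.89 and 8.73 in KO1 and 12.2 and 8.05 in KO2, a change of -0.85 ± 0.27. Col5a2 was low throughout, at 5.45 and 4.49 RPM in WT against 3.83 and 2.09 in KO1 and 1.62 and 0.55 in KO2, a change of -1.48 ± 0.52. The remaining 3 did not pass. Col2a1, the cartilage collagen, was at 19.9 and 14.95 RPM in WT, 18.8 and 26.9 in KO1 and 30.0 and 29.4 in KO2, where the KO2 libraries alone lay above both WT libraries and passed the test (0.72 ± 0.22, edgeR adjusted p = 0.017). Col5a1 was at 21.5 and 32.6 RPM in WT and between 28.0 and 45.8 in the knockouts, and Col11a1 lay between 1.05 and 3.83 RPM in the 6 GSC libraries.

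Col1a2 and Col3a1 fell together, and their promoter windows are printed here to set them side by side. Each window is 300 bases long, 250 before and 50 after the RefSeq transcription start (GRCm38.p6), written 5′ to 3′ on the gene's strand. Capitals mark GGGCGG (GC box), CCAAT and TATAAA on either strand, and no capitals overlap. The Col1a2 window lies at chr6:4505368-4505667 on the plus strand and the Col3a1 window at chr1:45311288-45311587 on the plus strand.
Col1a2: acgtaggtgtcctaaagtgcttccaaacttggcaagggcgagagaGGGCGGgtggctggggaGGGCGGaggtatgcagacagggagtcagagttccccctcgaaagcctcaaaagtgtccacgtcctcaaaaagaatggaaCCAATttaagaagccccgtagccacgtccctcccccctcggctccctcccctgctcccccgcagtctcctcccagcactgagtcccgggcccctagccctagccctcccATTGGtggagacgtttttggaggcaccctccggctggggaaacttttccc
Col3a1: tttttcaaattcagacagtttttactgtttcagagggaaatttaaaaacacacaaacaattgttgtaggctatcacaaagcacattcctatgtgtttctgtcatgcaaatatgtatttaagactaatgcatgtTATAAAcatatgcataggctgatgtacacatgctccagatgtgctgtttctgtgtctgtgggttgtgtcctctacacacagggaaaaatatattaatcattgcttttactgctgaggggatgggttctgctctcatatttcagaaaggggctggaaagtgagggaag
The Col1a2 window is 61.0% G and C and holds 2 GC boxes and 2 CCAAT motifs. The Col3a1 window is 37.7% G and C and holds TATAAA and neither of the others. Over all 32817 mouse promoter windows of this length in the RefSeq table, 35.6% hold GGGCGG, 37.4% CCAAT and 13.6% TATAAA. Of the 41 members with a window in that table, 26 hold GGGCGG, 14 CCAAT and 5 TATAAA, counted in the first window listed for each gene. These matches describe the letters only, and the pair that fell together had none of the 3 motifs in common.

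Of the basement membrane genes, 10 were tested: Lamb1 and Col4a2 fell, and Lamb2 and Nid2 rose. Lamb1, the beta chain of the common laminins, was at 212 and 187 RPM in WT, 126 and 118 in KO1 and 112 and 129 in KO2, and fell by 0.77 ± 0.09 on the log2 scale (edgeR adjusted p = 1.3e-11). Its 2 WT libraries lay above all 4 knockout libraries. Lamb2, the other beta chain found in basement membranes of nerve, muscle and kidney, was at 12.3 and 13.5 RPM in WT, 21.2 and 19.2 in KO1 and 22.1 and 19.7 in KO2, a log2 fold change of 0.63 ± 0.23 (edgeR adjusted p = 0.037). Lamc1, the gamma chain that pairs with both, was at 27.5 and 23.7 RPM in WT, 35.9 and 30.0 in KO1 and 25.4 and 25.5 in KO2, and did not pass (0.13 ± 0.18). Among alpha chains, Lama5 was at 20.7 and 16.4 RPM in WT, 21.2 and 36.0 in KO1 and 26.2 and 25.2 in KO2. Lama4 was at 6.53 and 6.73 in WT and at 2.22 to 4.59 in the knockouts, and Lama1 at 3.54 and 1.74 in WT and at 0.59 to 2.77 in the knockouts. All 3 alpha chains missed the threshold (edgeR adjusted p = 0.072, 0.088 and 0.29).

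The nidogens, which bridge laminin and type IV collagen, differed from each other and Nid1 differed between the lines. Nid2 was at 145 and 157 RPM in WT, 198 and 185 in KO1 and 192 and 219 in KO2, a log2 fold change of 0.34 ± 0.09 (edgeR adjusted p = 0.0019). Nid1 was at 45.7 and 56.3 RPM in WT, 31.2 and 44.7 in KO1 and 85.6 and 89.9 in KO2. Both KO1 libraries thus lay below WT and both KO2 libraries above it: Nid1 fell by 0.49 ± 0.17 in KO1 and rose by 0.73 ± 0.15 in KO2 (edgeR adjusted p = 0.032 and 0.00011, both against the same WT libraries). Set directly against each other, KO1 was lower than KO2 by a log2 difference of -1.22 ± 0.16 (edgeR adjusted p = 1.2e-08). Nid1 was the only member called between the lines, 1 of 27, where 0.833% of all genes were called, 0.286% lower and 0.547% higher. Another 3 members had an unadjusted p under 0.05 there, and DESeq2 also called 1 member. The KO1 fall of Nid1 was no longer called without WT replicate 2 or without KO1 replicate 1 (log2 change of 0.25 to 0.37 in size, edgeR adjusted p = 0.191 to 0.519).

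Col4a1 and Col4a2, which encode the chains of the ubiquitous type IV collagen, lie head to head on chromosome 8 and their RefSeq genes overlap by 85 bases. Their promoter windows share 78 bases, read in opposite directions, and are printed to show this common stretch and its motifs. The Col4a1 window is chr8:11312777-11313076 on the minus strand and the Col4a2 window chr8:11312555-11312854 on the plus strand (GRCm38.p6), with capitals as above.
Col4a1: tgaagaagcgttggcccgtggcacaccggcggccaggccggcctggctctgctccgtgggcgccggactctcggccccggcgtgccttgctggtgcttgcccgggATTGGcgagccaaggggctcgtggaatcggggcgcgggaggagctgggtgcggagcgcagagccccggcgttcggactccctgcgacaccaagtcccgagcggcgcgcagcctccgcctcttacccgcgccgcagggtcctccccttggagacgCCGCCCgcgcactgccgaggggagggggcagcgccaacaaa
Col4a2: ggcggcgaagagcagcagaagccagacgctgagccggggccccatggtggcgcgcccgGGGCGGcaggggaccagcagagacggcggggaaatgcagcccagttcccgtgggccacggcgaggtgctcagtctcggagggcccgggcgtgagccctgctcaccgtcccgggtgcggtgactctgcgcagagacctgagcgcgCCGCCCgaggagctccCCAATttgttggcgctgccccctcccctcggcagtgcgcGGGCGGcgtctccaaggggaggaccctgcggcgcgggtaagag
Col4a2 was at 9.26 and 7.48 RPM in WT, 3.83 and 3.49 in KO1 and 2.16 and 1.39 in KO2, and fell by 1.74 ± 0.42 on the log2 scale (edgeR adjusted p = 0.0011). Col4a1 was at 4.90 and 5.98 RPM in WT, 2.35 and 3.84 in KO1 and 3.78 and 1.66 in KO2. Both WT libraries of Col4a1 lay above all 4 knockout libraries, but its change of -0.96 ± 0.46 missed the threshold (edgeR adjusted p = 0.13).

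Among the other collagens, 10 were tested, 3 fell and 1 rose. Col18a1, a proteoglycan of basement membranes and the source of endostatin, was at 103 and 85.2 RPM in WT, 57.7 and 44.3 in KO1 and 61.8 and 62.7 in KO2, and fell by 0.78 ± 0.12 on the log2 scale (edgeR adjusted p = 2e-07). Col6a2, a chain of the beaded filament collagen VI, was at 8.17 and 6.48 RPM in WT, 1.177 and 4.89 in KO1 and 0.81 and 2.22 in KO2 (-1.83 ± 0.46, edgeR adjusted p = 0.002). Col6a3 of the same collagen was at 5.45 and 4.98 RPM in WT, 2.94 and 0.70 in KO1 and 1.35 and 2.77 in KO2 (-1.43 ± 0.50, edgeR adjusted p = 0.033). In all 3 the WT libraries were the highest. Col13a1, a transmembrane collagen of cell contacts, went the other way: it was at 13.1 and 15.4 RPM in WT, 35.6 and 33.2 in KO1 and 35.6 and 36.1 in KO2, a log2 fold change of 1.25 ± 0.19 (edgeR adjusted p = 1.9e-07).

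**Figure D2:**
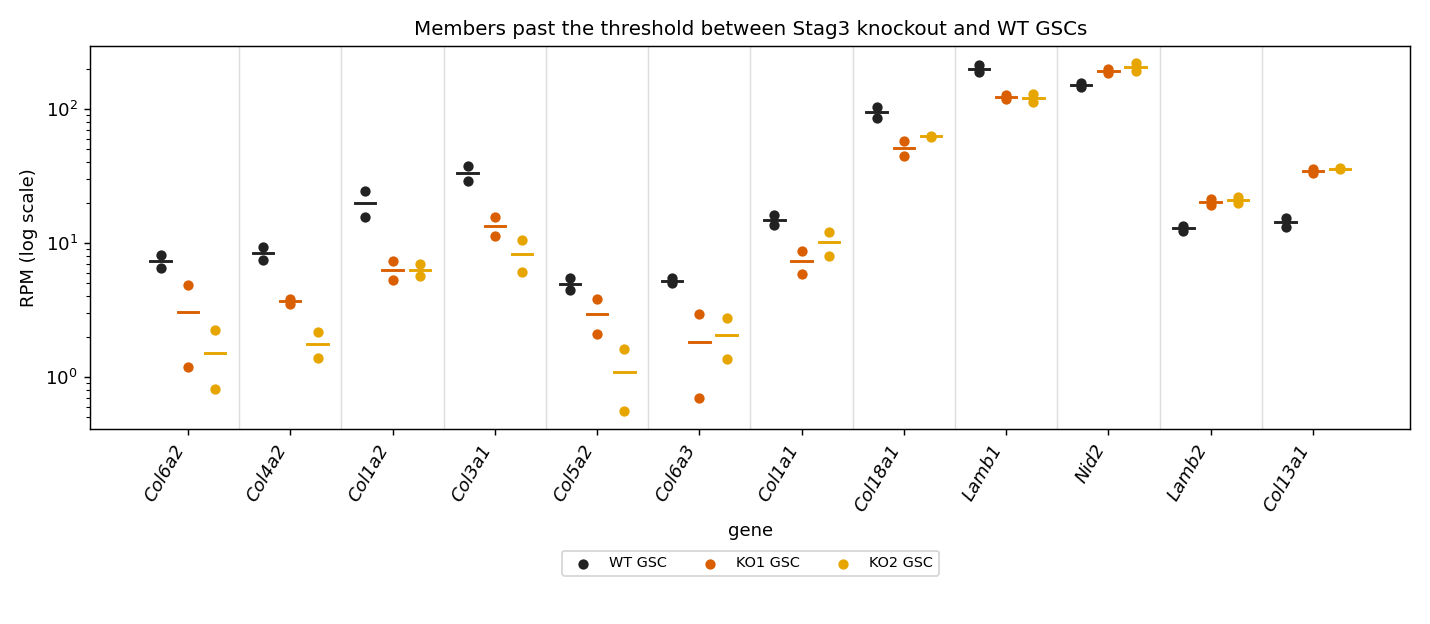
RPM on a log scale of the 12 members called between knockout and WT GSCs. Points are libraries, short bars the mean of 2, with WT black, KO1 orange and KO2 yellow; the 9 genes from Col6a2 to Lamb1 have their highest points in WT, and Nid2, Lamb2 and Col13a1 their lowest.

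Taken line by line against the same WT libraries, KO1 had 2 of 27 members higher and 6 lower, where 6.24% of all genes were higher and 7.4% lower (13.6% called). KO2 had 4 members higher and 8 lower, where 7.19% of all genes were higher and 8.45% lower (15.6% called). Col1a2, Col3a1, Col18a1, Lamb1, Nid2 and Col13a1 were called in each line with the same sign. Col8a1, a chain of the network-forming collagen VIII, was called in KO2 alone among the single lines: it had 23 counts in the WT libraries and 2 in KO2, 10.9-fold lower after division by library size, with a 95% counting interval of 2.70 to 95.7. Of the 12 calls on the mean of both lines, 7 stood whichever library was left out. Lamb2 lost its call in 5 of 6 such fits (all but the fit without KO1 replicate 2). Col5a2 lost it without either WT library, KO1 replicate 2 or KO2 replicate 2, and Col6a3 without either WT library, KO1 replicate 2 or KO2 replicate 1. Col1a1 lost it without WT replicate 2, KO1 replicate 1 or KO2 replicate 2, and Col6a2 without WT replicate 1. The edgeR adjusted p-values of these fits lay between 0.0544 and 0.237, and the smallest log2 changes in size were 0.57 in Lamb2, 1.21 in Col5a2, 1.12 in Col6a3, 0.72 in Col1a1 and 1.64 in Col6a2. Within single lines the same kind of fit ended the calls of Col1a1, Nid1 and Nid2 in KO1 and of Col2a1, Col5a2, Col6a2, Col8a1 and Nid2 in KO2 (edgeR adjusted p = 0.0672 to 0.519). DESeq2 did not call Lamb2, Col1a1, Col5a2, Col6a2 or Col6a3 on the mean of both lines, and Nid2 missed the threshold with spike-in scaling and in a fit of all 12 libraries.

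Of 8 fibroblast and feeder cell genes, 5 were tested and 2 fell on the mean of both lines, 0 in KO1 and 2 in KO2. The whole list summed to 189 and 192 RPM in WT, 202 and 209 in KO1 and 193 and 201 in KO2, higher in the knockouts. Most of that sum was Fn1, which was at 159 and 165 RPM in WT and at 178 to 191 in the knockouts and did not pass the test (0.13 ± 0.09). The other 7 summed to 29.9 and 26.9 RPM in WT, 18.2 and 18.2 in KO1 and 14.6 and 18.03 in KO2, and Lum and Fap were at 0 in most of these libraries. The 2 that fell were Dcn and Pdgfra. Their part in the fall of the collagens was not tested. Of the Sertoli cell list, 5 of 10 genes were tested, 2 rose and 1 fell, with sums of 32.9 and 36.6 RPM in WT, 63.9 and 62.8 in KO1 and 43.2 and 48.3 in KO2. Of the 6 germ cell genes, 5 fell, with a median log2 fold change of -0.36. On the mean of both lines, 10.6% of all genes were lower and 8.64% higher. The myoid list summed to 9.53 and 5.98 RPM in WT, 12.7 and 12.2 in KO1 and 4.05 and 3.33 in KO2. Only 1 myoid gene was tested: it was called lower in KO2 (-2.85), not in KO1 (0.91), and higher in KO1 than in KO2 (3.76). The part of myoid cells was not tested.

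Genes that process or bind these proteins were called in both directions in the knockout GSCs, and their counts are to be read against the 19.2% of all genes called there. Of 21 genes of collagen folding, modification and cross-linking that were tested, 3 rose and 2 fell. Lox, the cross-linking lysyl oxidase, changed by -1.19 ± 0.34 on the log2 scale, the folding enzyme subunit P4hb by -0.19 ± 0.07 and the lysyl hydroxylase Plod3 by 0.45 ± 0.16. Of 12 receptor genes, 3 rose and 2 fell. The integrin subunits Itga3, Itgav and Itga6 had log2 changes of 1.22 ± 0.35, 0.98 ± 0.28 and 0.40 ± 0.12, the syndecan Sdc4 one of -0.42 ± 0.08 and dystroglycan, Dag1, one of -0.27 ± 0.08. Of 16 other matrix genes, 3 rose and 1 fell, with Fbn2 (fibrillin) at 0.78 ± 0.16, Agrn (agrin) at 0.55 ± 0.16 and Smoc2 at 0.51 ± 0.10. Of 12 proteases and their inhibitors, 2 rose and 3 fell: Timp1 at 0.79 ± 0.26 and Plat, tissue plasminogen activator, at 0.65 ± 0.12 rose, while the gelatinase Mmp2 at -0.86 ± 0.28 and Serpine2 at -0.71 ± 0.14 fell.

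In vivo, 7 of the 11 fibrillar collagens and 4 of 24 other collagens tested rose between E16 and E17, Col18a1 fell, and 0 of 18 basement membrane genes passed the test (the difference between the classes was not tested). Of 53 members tested, 11 were higher and 1 lower at E17 (edgeR, 14776 genes tested). Over all genes 6.6% were called, 1.64% higher and 4.96% lower, against 20.8% and 1.89% of the members. The median log2 fold change was 1.12 for the 11 fibrillar collagens, 0.25 for 18 basement membrane genes, 0.45 for 24 others and 0.01 for all genes. edgeR's normalisation factors were 0.925 and 0.852 for the E16 libraries and 1.12 and 1.13 for those of E17, so its fold changes are smaller than the ratio of RPM. Lamb1, for example, was at 216 and 216 RPM at E16 and 270.5 and 247 at E17, with a fitted change of -0.08 ± 0.13.

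Col2a1, the type II collagen of cartilage, was at 75.0 and 69.0 RPM at E16 and at 173 and 177 at E17, a log2 fold change of 0.95 ± 0.16 (edgeR adjusted p = 0.0028). The type XI chains, which copolymerise with it, rose as well: Col11a1 from 55.2 and 23.6 RPM to 123 and 121 (1.34 ± 0.27), and Col11a2 from 24.8 and 24.99 to 67.6 and 84.8 (1.27 ± 0.24). Of the types I and V, Col1a2 went from 25.8 and 30.3 RPM to 89.0 and 67.0 (1.12 ± 0.25), Col5a1 from 27.8 and 19.4 to 71.7 and 61.8 (1.18 ± 0.24), and Col5a2 from 33.3 and 38.4 to 105 and 98.9 (1.15 ± 0.21). The largest fitted change among the members called was that of Col24a1, a minor fibrillar collagen of bone and cornea, from 13.9 and 7.74 RPM to 50.9 and 50.8 (1.93 ± 0.35, edgeR adjusted p = 0.0033). In RPM both E17 libraries lay above both E16 libraries in all 11 fibrillar genes, but also in Lamb1, with a fitted change of -0.08. The share of all genes that separate in this way was not counted. The remaining 4 fibrillar genes did not pass the test. Col1a1 was at 17.4 and 8.45 RPM at E16 and 28.9 and 36.1 at E17, and Col3a1 at 64.6 and 51.0 against 97.7 and 105. Col5a3 was at 43.7 and 24.6 RPM against 76.9 and 70.6, and Col27a1 at 11.4 and 9.504 against 22.5 and 22.5.

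**Figure D3:**
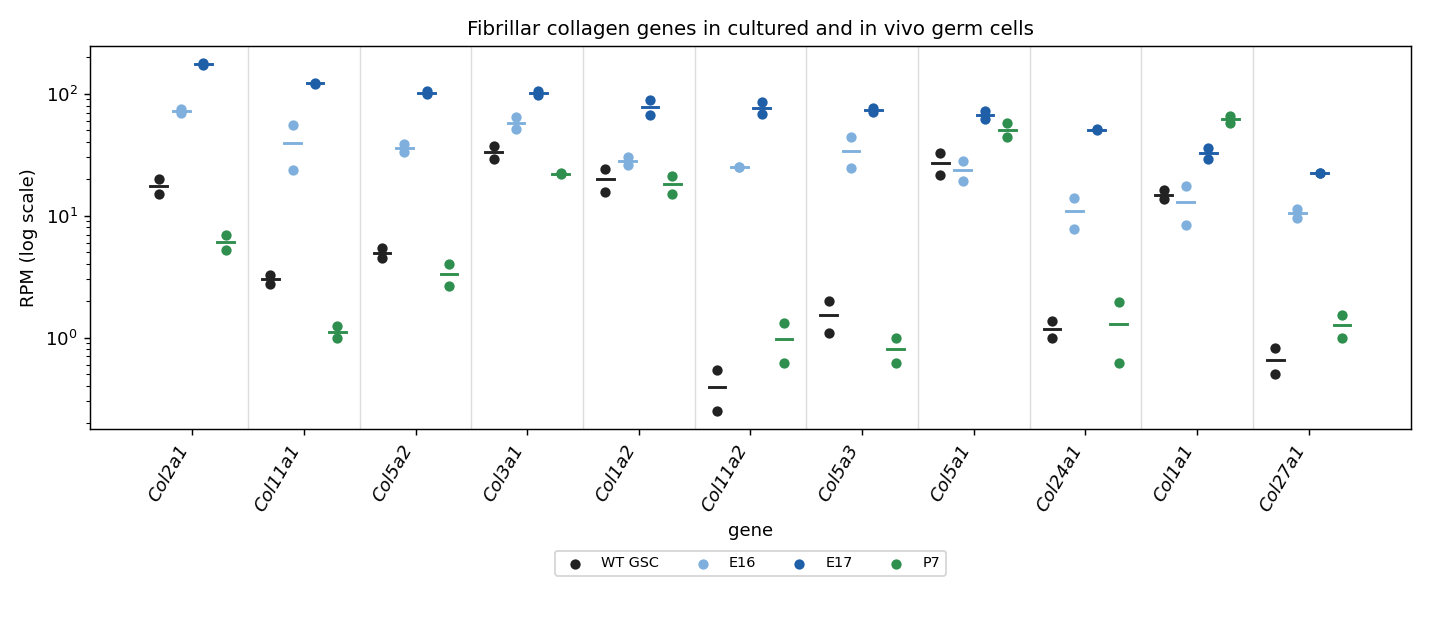
RPM on a log scale of the 11 fibrillar collagens in WT GSCs (black) and in germ cells at E16 (light blue), E17 (dark blue) and P7 (green); points are libraries and short bars the mean of 2. The E17 points lie above the E16 points in all 11 genes, and at P7 only Col1a1 lies above E17. RPM is drawn without edgeR's normalisation factors, which lower the E17 values against E16.

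Among the other collagens, Col9a1, a cartilage collagen that decorates type II fibers, rose from 20.4 and 21.8 RPM to 78.6 and 78.0 (1.54 ± 0.25, edgeR adjusted p = 0.0016). Col6a1 rose from 21.4 and 22.5 RPM to 61.8 and 68.6 (1.23 ± 0.25), Col6a4 from 51.2 and 52.1 to 114 and 118 (0.83 ± 0.19), and Col16a1 from 54.2 and 53.2 to 109 and 150.2 (0.93 ± 0.22). Col18a1 was the member that fell, from 90.9 and 83.8 RPM to 58.9 and 62.3 (-0.86 ± 0.19, edgeR adjusted p = 0.011). Under scaling to the ERCC spike-ins Col18a1 turned to 2.15, while its distance from the median gene stayed at -0.88. How much spike-in each library received is not given in the sources used here. Of the 18 basement membrane genes 0 passed in edgeR, 3 had an unadjusted p under 0.05, and DESeq2 called 0. Their fitted changes ran from -0.66 in Lama1 to 1.93 in Col4a3, a gene under 7 RPM.

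These counts depended on single libraries. Without E16 replicate 1 the number of members called was 24, and without either E17 library it was 6, with 10, 4 and 5 fibrillar collagens among them in the fits without E16 replicate 1, E17 replicate 1 and E17 replicate 2. Of the basement membrane genes, 5 were called higher and 1 lower without E16 replicate 1, and 1 was called higher without E16 replicate 2 and 1 with no low-count filter. Of the 12 calls, 3 (Col24a1, Col9a1 and Col11a1) stood in each of these fits, and the other 9 missed the threshold in 1 or both fits without an E17 library, with an edgeR adjusted p of 0.054 to 0.334 and a log2 change of at least 0.68 in size. The Sertoli list summed to 169 and 142 RPM at E16 and 160 and 171 at E17, and the peritubular myoid list to 95.9 and 85.9 against 105 and 116. The fibroblast list without Fn1 summed to 129 and 135 RPM against 185 and 174, and 11 cartilage genes, chosen after their values were seen, to 113 and 126 against 141 and 140. These sums are RPM without edgeR's normalisation factors. In edgeR, 0 of 8 Sertoli, 0 of 4 myoid and 0 of 6 fibroblast genes tested were called, where 6.6% of all genes were. Their median log2 fold changes were -0.07, -0.05 and -0.12. The part of these cells in the rise was not tested.

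Between E17 and P7 most collagens fell, the 3 chains of the laminin of stem cell surfaces and adult basement membranes (Lama5, Lamb1, Lamc1) did not pass the test, and both nidogens rose. Of 53 members tested, 39 were lower and 3 higher at P7 (edgeR). All genes moved widely in this comparison, with 67.9% called, 37.8% lower and 30.2% higher, against 73.6% and 5.66% of the members. The median log2 fold change of the members was -2.80, the same with the 3 genes at 0 at P7 set to their bound, against -0.13 for all genes. By class it was -4.68 for fibrillar collagens, -1.27 for basement membrane genes and -3.80 for others, or -3.58 with genes at 0 set to their bound.

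Col11a1 was at 0.99 and 1.24 RPM at P7, a fall of 6.55 ± 0.43 on the log2 scale (edgeR adjusted p = 1.1e-08). Col5a3 and Col11a2 ended at 0.62 to 1.32 RPM, as did Col24a1 and Col27a1 at 0.62 to 1.97 and Col5a2 at 2.63 and 4.02. Col2a1 was at 6.91 and 5.25 RPM, Col3a1 at 22.03 and 22.3 and Col1a2 at 15.1 and 21.3, and all of these were called lower. Col5a1 kept 57.5 and 43.9 RPM and did not pass (-0.24 ± 0.22). Col1a1, in contrast, rose to 57.5 and 65.8 RPM, a log2 fold change of 1.08 ± 0.26 (edgeR adjusted p = 0.0018), above both E17 libraries. The 2 chains of type I collagen thus moved in opposite directions, Col1a2 by -1.93 ± 0.25 and Col1a1 by 1.08 ± 0.26 (the difference between the genes was not tested). Under spike-in scaling the change of Col1a1 turned to -3.58, with the gene 1.23 above the median gene.

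The other collagens fell almost throughout, with 19 of 24 tested called lower. Col16a1, a fibril-associated collagen, went from 109 and 150.2 RPM at E17 to 1.64 and 0.31 at P7 (-6.85 ± 0.38). Col9a1 had 285 counts at E17 and 1 at P7, a ratio of 491 with a 95% counting interval of 87.5 to 19470, and Col26a1 and Col19a1 had 73 and 45 counts at E17 and 0 at P7, at least 20.8-fold and 12.9-fold lower. Col19a1 had been at 3.98 and 4.93 RPM at E16 and 12.1 and 12.6 at E17, and Col26a1 at 18.4 and 13.4 and then 16.2 and 23.5. Among the collagen VI chains, Col6a2 went from 109 and 137 RPM to 4.27 and 5.56, Col6a1 from 61.8 and 68.6 to 1.64 and 2.16, and Col6a4 from 114 and 118 to 9.54 and 12.4. Their 3 neighbours in the beaded filament family were lower: Col6a5 went from 55.5 and 68.6 to 0.66 and 1.24, Col6a6 from 11.6 and 15.2 to 0.66 and 0.31, and Col6a3 from 15.03 and 11.5 to 6.58 and 3.71, the last without passing. Col14a1, which binds collagen fibrils, was at 74.5 and 78.1 RPM at E16, 102 and 84.3 at E17 and 5.26 and 9.58 at P7. Col22a1, a collagen of tissue junctions, was at 59.6 and 54.6, 90.7 and 108, and then 22.4 and 31.8.

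The cartilage collagens Col9a2 and Col9a3 were at 16.2 and 28.8 RPM and at 53.2 and 50.2 RPM at E17 and at 0.66 to 1.55 and 6.80 to 10.2 at P7. Their E16 values were 17.4 and 14.8 RPM for Col9a2 and 38.3 and 33.4 for Col9a3. Col7a1, the anchoring fibril collagen of skin, was at 28.3 and 18.7 RPM at E16, 41.0 and 34.5 at E17 and 0.33 and 0.93 at P7. Col28a1, whose product is found around nerves, was at 13.9 and 15.8, then 27.7 and 33.5, then 0 and 0.93. Col12a1 was at 8.45 and 8.10, then 19.6 and 10.99, then 2.63 and 1.24. Of the transmembrane collagens, Col23a1 was at 25.3 and 12.3, then 22.5 and 29.3, then 2.63 and 1.55, and Col25a1 at 26.3 and 7.39, then 33.5 and 21.5, then 7.89 and 3.71, both called lower. Col17a1, a hemidesmosome protein, was at 19.4 and 14.4, then 29.5 and 29.8, then 22.7 and 11.4, and Col13a1 at 23.4 and 17.6, then 21.96 and 19.9, then 22.03 and 22.3, and neither passed. Col18a1 ended at 46.7 and 37.1 RPM, which also did not pass (-0.38 ± 0.19).

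Of the 11 laminin chains tested, 7 were called lower and 4 were not called, and the chains were not tested against each other. Lamb1, Lamc1 and Lama5, which together form laminin-511, did not pass the test: Lamb1 was at 260.4 and 254 RPM, Lamc1 at 32.3 and 33.1 at E16, 46.2 and 50.2 at E17 and 47.7 and 40.2 at P7, and Lama5 at 32.8 and 34.8, then 67.0 and 66.5, then 63.8 and 62.1. Their fitted changes from E17 were 0.15 ± 0.12, 0.02 ± 0.21 and 0.07 ± 0.18. Lamb2 was at 12.9 and 14.4, then 9.82 and 20.9, then 8.55 and 7.73, and did not pass either, with a fitted change of -0.77. The other 7 laminin chains fell. Lamb3, the beta chain of epithelial laminin-332, had 95 counts at E17 and 0 at P7, at least 27.2-fold lower, after 23.4 and 20.1 RPM at E16 and 25.4 and 26.7 at E17. Its partner chain Lama3 was at 78.0 and 68.3 RPM at E16, 102 and 101 at E17 and 40.8 and 36.2 at P7 (-1.24 ± 0.18, edgeR adjusted p = 2.3e-05).

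Lama4, the laminin alpha chain of vessels and mesenchyme, was at 32.8 and 30.3 RPM at E16, 38.1 and 39.8 at E17 and 0.66 and 1.85 at P7 (-4.72 ± 0.41, edgeR adjusted p = 1.8e-07). Lama1, an early embryonic alpha chain, was at 31.8 and 39.8, then 28.9 and 28.8, then 3.62 and 4.33. The muscle chain Lama2 was at 7.45 and 9.15, then 13.3 and 14.7, then 3.62 and 6.49, and Lamc3 at 7.45 and 2.11, then 9.25 and 10.99, then 0.99 and 2.16. Of the type IV chains, Col4a1 was at 18.4 and 9.86, then 27.7 and 24.6, then 12.2 and 10.2, and Col4a2 at 24.8 and 32.7, then 35.3 and 36.6, then 8.55 and 9.89, so the head-to-head pair was called lower together (-1.07 ± 0.35 and -1.80 ± 0.30). Col4a4, which with Col4a3 and Col4a5 forms the type IV collagen of kidney filters, was at 15.9 and 11.3, then 39.3 and 32.4, then 4.93 and 3.71. The calls of Col4a1, Lama2, Lamc3 and Nid1 were lost in 2 or 3 of the 4 fits that left out a library (edgeR adjusted p = 0.0608 to 0.179, with a log2 change of at least 0.93, 0.91, 2.01 and 0.52 in size).

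Both nidogens rose towards P7. Nid2 was at 33.8 and 18.3 RPM at E16, 39.9 and 38.2 at E17 and 167 and 174 at P7, a log2 fold change of 2.28 ± 0.21 (edgeR adjusted p = 2.8e-07). Nid1 was at 29.3 and 20.8, then 39.9 and 31.4, then 52.6 and 48.5 RPM, a change of 0.66 ± 0.23 (edgeR adjusted p = 0.018). With spike-in scaling, where the median gene fell by 4.81, these changes turned to -2.40 and -4.04. Relative to the median gene they were then 2.41 and 0.77 higher. The ERCC spike-ins had 3768 and 4979 counts at E17 and 188998 and 159198 at P7. A different amount of spike-in added and a different amount of RNA cannot be told apart here.

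**Figure D4:**
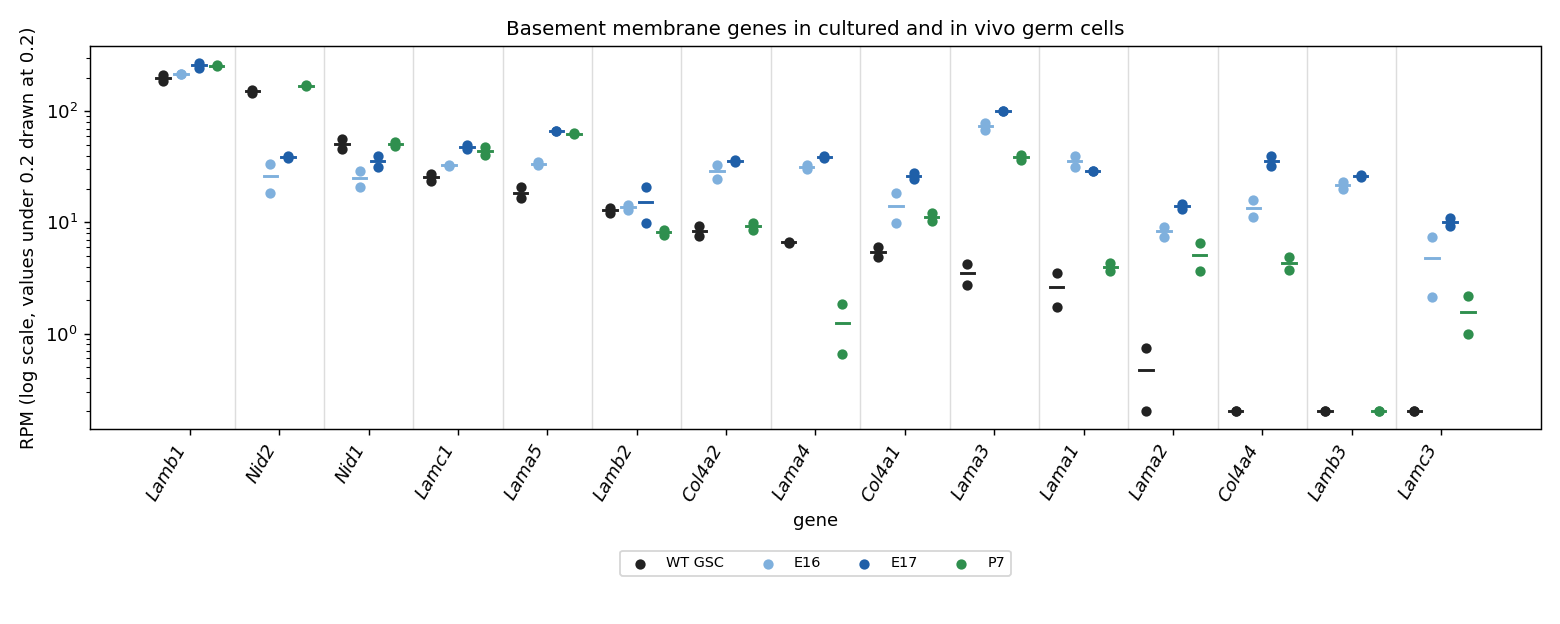
RPM on a log scale of 15 basement membrane genes that reached 10 RPM in a group, in WT GSCs (black), E16 (light blue), E17 (dark blue) and P7 (green), with points for libraries, short bars for the mean of 2, and values under 0.2 drawn at 0.2. Nid2 lies lower at E16 and E17 than in GSCs and at P7, whereas Lama3, Lama1, Col4a4 and Lamb3 lie highest at E16 and E17.

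Marker lists of other cells differed in how many of their genes fell between E17 and P7, where 37.8% of all genes were lower. All 4 myoid genes tested were called lower, with list sums of 105 and 116 RPM at E17 and 11.5 and 21.9 at P7, and desmin, Des, at 40.5 and 44.5 against 1.97 and 1.85. Of 6 endothelial genes, 4 fell, of 6 fibroblast genes tested, 3 fell and 1 rose, of 8 Sertoli genes 2 fell, and of 5 red blood cell genes 1 fell. The 7 fibroblast genes other than Fn1 summed to 35.2 and 38.9 RPM at P7, and the 11 cartilage genes to 11.5 and 12.4, with aggrecan, Acan, at 37.0 and 38.2 RPM at E17 and 2.63 and 1.55 at P7. Of 2 Leydig cell genes tested, 1 fell, and that list summed to 33.5 and 37.2 RPM at E17 and 8.55 and 2.78 at P7. Its enzyme Cyp11a1 was at 24.9 and 26.7 RPM at E17 and 1.64 and 0 at P7. The part of these cells in the fall of the collagens was not tested.

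Partner genes of the matrix were called in both directions from E17 to P7, as were all genes, at 37.8% lower and 30.2% higher. Of 26 processing genes tested, 15 fell and 3 rose: P4ha3, a collagen prolyl hydroxylase subunit, by -6.38 ± 0.75, Lox by -4.46 ± 0.63 and Loxl1 by -3.88 ± 0.72, against P4hb at 0.79 ± 0.12 and Plod2 at 0.98 ± 0.24. Of 16 receptors, 7 fell and 6 rose. The collagen receptors Ddr2, Itga11 and Itga10 changed by -5.04 ± 0.78, -4.94 ± 0.45 and -4.68 ± 0.78 on the log2 scale. Itga6, the integrin chain that binds laminin and is widely used to enrich spermatogonia, rose by 2.19 ± 0.28, and the syndecans Sdc4 and Sdc1 by 2.96 ± 0.18 and 1.89 ± 0.38. Of 22 other matrix genes, 13 fell, among them Npnt, Postn and Frem1 at -3.70 ± 0.43, -3.64 ± 0.25 and -3.27 ± 0.56, and 4 rose, among them Smoc2 at 5.55 ± 0.32. Of 17 proteases and inhibitors, 9 fell and 3 rose.

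Cultured WT GSCs were then set against the germ cells. With P7, 16 of 54 members tested were higher and 5 lower at P7 (edgeR, 15827 genes tested), where 31% of all genes were called, 16% higher and 15% lower. Among genes that span 50 kb or more, as the members do at their median, 23% were higher and 7.22% lower, against 29.6% and 9.26% of the members. The median log2 fold change was 0.57 for members, 0.25 for these long genes and 0.03 for all genes. Lamb1, Nid1 and Nid2 did not pass, at 0.23 ± 0.11, -0.15 ± 0.19 and 0.04 ± 0.13. Lama3 was at 2.72 and 4.24 RPM in WT GSCs against 40.8 and 36.2 at P7, the lowest adjusted p among the members (3.31 ± 0.30, edgeR adjusted p = 4.4e-11). Col22a1 at 2.61 ± 0.34, Col1a1 at 1.91 ± 0.26, Col17a1 at 1.76 ± 0.38 and Lama5 at 1.63 ± 0.21 were also higher at P7. Col6a4 and Col4a4 were at 0 counts in both WT libraries and at least 14.0-fold and 5.52-fold higher at P7. Lower at P7 were Lama4 (-2.47 ± 0.54), Col2a1 (-1.64 ± 0.28), Col18a1 (-1.30 ± 0.17), Col3a1 (-0.72 ± 0.22) and Col26a1, which had 15 counts in WT GSCs and 0 at P7, at least 2.07-fold lower. With spike-in scaling the split was 11 higher and 11 lower, since the median gene moved by -0.46. Of 18 calls followed, 10 stood in all 4 fits that left out a library. The call was lost in 3 such fits for Col3a1, Col6a5 and Lamc3, in 2 for Col5a1 and Lamc1, and in 1 for Col17a1 (without P7 replicate 1) and Col26a1 (without WT replicate 1), with an edgeR adjusted p of 0.0546 to 0.174. Of the Sertoli list, 5 of 8 genes tested were higher at P7 than in WT GSCs and 1 lower, and 4 of 5 red blood cell genes were higher. Their part in these differences was not tested.

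Against the fetal germ cells, taken as the mean of E16 and E17, 43 of 54 members were higher in the fetal libraries than in WT GSCs and 3 were lower. All genes were called at 74.2%, with 41.9% higher and 32.3% lower, and at 46.9% higher among genes that span 50 kb or more. The median log2 fold change was 3.58 for members, or 3.46 with the 9 genes at 0 counts in WT set to their bound, and 0.23 for all genes. This comparison uses the same WT libraries as the one with P7. There were 7 members with no count in any of the 6 GSC libraries: Col6a5, Col6a6, Col9a1, Col10a1, Col19a1, Lamb3 and Lamc3. Of these, 6 were counted in all 4 fetal libraries, where 12.5% of the 12560 genes at 0 in all GSC libraries were. The bounds against WT were at least 107-fold for Col6a4, 63.5-fold for Col9a1, 61.5-fold for Col6a5, 31.6-fold for Col4a4 and 30.5-fold for Lamb3. Among members counted in WT, Col11a2 had 3 counts there and 400 in the fetal libraries, a ratio of 121 with a 95% counting interval of 41.0 to 587, and Col16a1, at 1.91 and 1.00 RPM in WT, changed by 5.69 ± 0.34. Col14a1, at 2.18 and 1.495 RPM in WT, changed by 5.37 ± 0.31.

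The GSC values of the other collagens named above for the fetal stages were low. Over the 6 GSC libraries, Col6a1 lay at 0 to 2.99 RPM, Col7a1 at 0.25 to 2.35, Col9a2 at 0.25 to 2.45, Col9a3 at 1.77 to 5.94, Col12a1 at 0 to 1.47, Col14a1 at 0.59 to 2.18 and Col16a1 at 0.59 to 2.70. Of the remaining chains, Col17a1 lay at 3.53 to 6.94, Col22a1 at 2.44 to 8.83, Col23a1 at 1.05 to 1.66, Col25a1 at 0.54 to 4.71, Col26a1 at 0.70 to 5.30 and Col28a1 at 0 to 0.29. Col5a3, Col11a2, Col24a1 and Col27a1 stayed between 0 and 1.99 RPM. The basement membrane genes Lama2 and Lama3 lay at 0 to 1.08 and 0.35 to 4.24 RPM, and Col4a4 and Col6a4 had counts in KO2 libraries only, up to 0.83 RPM each.

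The 3 members lower in the fetal libraries were Nid2 (-2.41 ± 0.13, edgeR adjusted p = 4.7e-18), Nid1 (-0.92 ± 0.17) and Col18a1 (-0.50 ± 0.14). Under spike-in scaling these turned to 0.26, 1.73 and 2.14, at -2.61, -1.14 and -0.72 from the median gene. The call of Col18a1 was lost without WT replicate 1 (0.38 in size, edgeR adjusted p = 0.0638), and that of Lamc1, higher in the fetal libraries by 0.50 ± 0.18, without WT replicate 2 or E17 replicate 2 (edgeR adjusted p = 0.183 and 0.0552). Lamb1, Lamb2, Col1a1, Col5a1 and Col13a1 were among the 8 tested members that did not pass. Of the receptors, 9 of 16 were higher and 5 lower in the fetal libraries, where 74.2% of all genes were called, with Itga11, a collagen receptor, at 28.3 to 45.5 RPM in the 4 fetal libraries and at 0 and 0.50 in WT, and Sdc4 and Itga6 lower by a log2 change of -3.03 ± 0.11 and -1.58 ± 0.19. Of other cells, all 4 myoid genes and 5 of 6 endothelial genes tested were higher in the fetal libraries, and the 5 red blood cell genes summed to 90.2 to 273 RPM there against at most 0.27 in GSCs. The part of these cells in the difference was not tested.

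**Figure D5:**
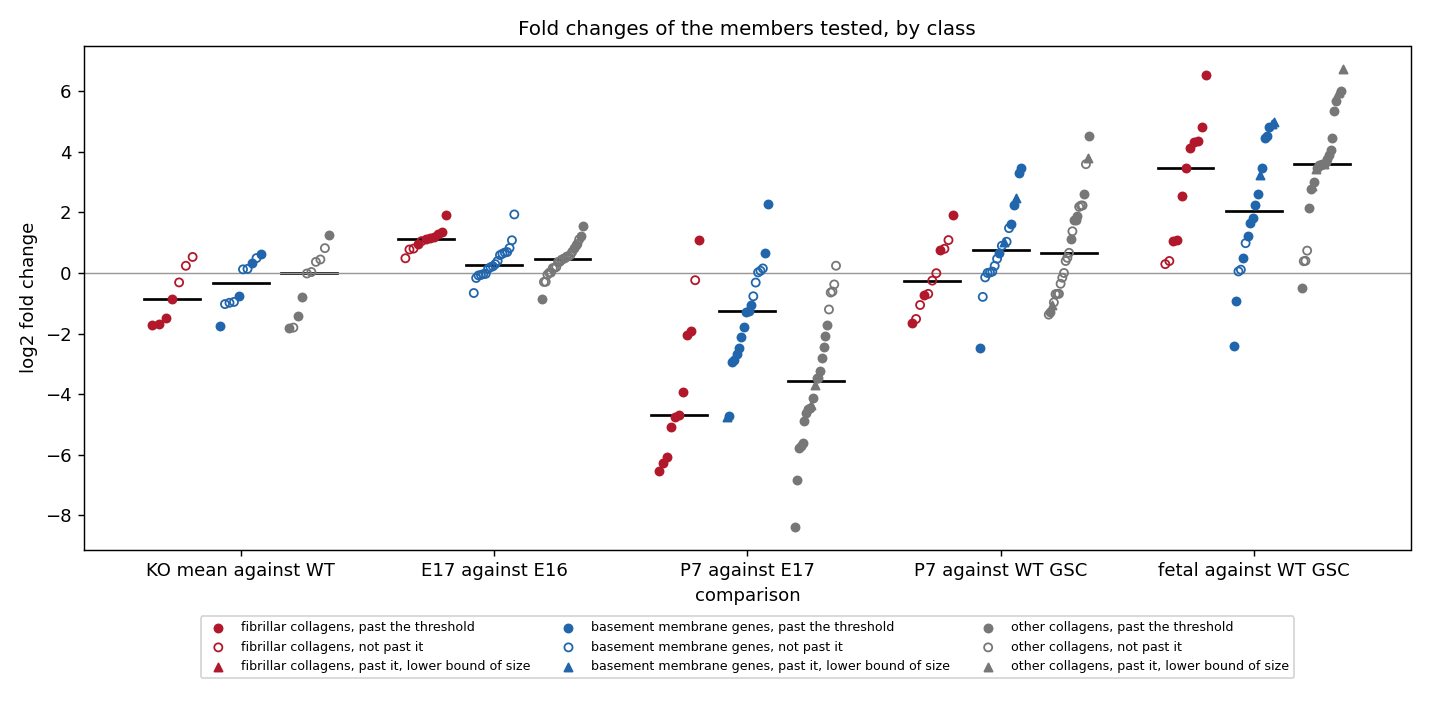
Log2 fold change of each member tested in 5 comparisons, by class (fibrillar red, basement membrane blue, others grey); filled symbols passed the threshold, triangles are lower bounds of size for genes at 0 in a compared group, and black bars are medians. The fibrillar median lies lowest of the classes in the knockout and from E17 to P7 and highest from E16 to E17.

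Some members lie near each other in the genome. There are 9 neighbouring pairs within 100 kb. Col3a1 and Col5a2, 24.6 kb apart on chromosome 1, both fell in the knockout, though DESeq2 did not call Col5a2 there, and both fell by P7. Col6a1 and Col6a2, 85.2 kb apart on chromosome 10, both fell by P7, by 4.90 ± 0.34 and 4.47 ± 0.28 on the log2 scale. A shared fall by P7 was common, since 39 of 53 members tested were called lower. From E16 to E17, Col5a2, Col6a1 and Col9a1 were called higher, while their neighbours Col3a1, Col6a2 and Col19a1 were not called. Whether neighbours moved together more than other members was not tested. The row Col6a6, Col6a5 and Col6a4 on chromosome 9 was at or near 0 in GSCs and counted in every fetal library. The annotation places 30 of the 57 members over another gene, such as Nid2 over Rtraf and Col9a3 over Tcfl5, and since strand use in counting is not given in the sources used here, reads of such pairs cannot be told apart.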

How the data were processed

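SC3-seq libraries were made from 1 ng of RNA. The deposited tables hold raw read counts per gene, made by the authors; the submitters' processing notes name cutadapt 1.18, TopHat2 2.1.1, HTSeq 0.9.1, Salmon 1.4.0 and the build GRCm38.p6, without the role of each. ERCC spike-in and other rows that name no gene, 0.198% to 5.86% of the counts, were left out of library sizes and tests, as were mitochondrial genes, which are blank at P7. RPM was computed from the remaining counts. Tests used edgeR 4.0.16 (R 4.3.3, limma 3.58.1) with TMM normalisation, filterByExpr, the quasi-likelihood test and Benjamini-Hochberg adjustment over all genes tested at 0.05. The 6 GSC libraries, the 6 in vivo libraries and, for comparisons between them, all 12 libraries were fitted separately. Before use, the fitting steps were tested on simulated data.

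The members and gene lists were chosen with earlier results of these data known. Members with a group mean of at least 10 RPM are described, except 1 that is counted among the members and is not reported by name here. In each comparison up to 10 called members with the largest fold change are named, and from each list of partner genes at most the 3 largest rises and falls. A fold against 0 counts is a lower bound from 3 counts per library. Counting intervals are at 95% and cover counting error only. Alternatives were DESeq2 1.42.0, median-of-ratios and ERCC size factors, no low-count filter, other samples in the fit, a replicate block and leaving out each library. The amount of spike-in added per library is not given in the sources used here, so ERCC scaling served as an alternative only. Sequences are from RefSeq (GRCm38.p6), with promoter windows for 41 of the 57 members. Lists of other cells' markers were read as summed RPM.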

Additional observations from a re-analysis of the deposited data

Results flagged for a closer look

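Nid1 changed in opposite directions in the 2 knockout lines against the same WT libraries. On the log2 scale it fell by 0.49 ± 0.17 in line KO1 and rose by 0.73 ± 0.15 in line KO2, and the difference of KO1 minus KO2, tested directly, was -1.22 ± 0.16 (edgeR adjusted p = 1.2e-08). The call between the lines stood under every alternative tried, while the fall in KO1 was not called by DESeq2 or in the fit of all 12 libraries.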

How the results depend on the processing

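Of 147 results on named members, 106 kept their direction and their side of the threshold in every alternative run for them. With ERCC size factors, 98.2% of all genes were called from E16 to E17 and 98.3% from E17 to P7. For fetal cells against WT GSCs it was 92.6%. A call kept under that scaling in these comparisons therefore says little about the member. DESeq2 called 7 members for the knockout mean in place of 12 and 5 for KO1 in place of 8; the cause was not tested. With ERCC size factors all 53 members tested were called between E17 and E16, in place of 12, because that scaling moved the median gene by 3.02 on the log2 scale. It moved the median gene by -4.68 from E17 to P7, by -0.46 from WT GSCs to P7, by 2.64 from WT GSCs to the fetal cells and by -0.10, 0.06 and -0.16 for KO1, KO2 and KO1 against KO2. Under it these changes turned sign: Col18a1 from E16 to E17 (2.15), Nid1 (-4.04), Nid2 (-2.40) and Col1a1 (-3.58) from E17 to P7, and Nid1 (1.73), Nid2 (0.26) and Col18a1 (2.14) in fetal cells against WT GSCs. Leaving out 1 library gave 8 to 12 members called for the knockout mean, 6 to 8 for KO1, 9 to 12 for KO2, 1 for KO1 against KO2, 6 to 24 from E16 to E17, 38 to 41 from E17 to P7, 14 to 18 for P7 and 43 to 49 for fetal cells against WT GSCs; with 1 library left in a group, its spread is taken from the others. The replicate block gave 14, 8, 12, 1, 14, 42, 21 and 46 in the same order. The replicate numbers give no pairing, since the difference between replicates 1 and 2, gene by gene, correlated between groups at only -0.052 to 0.059.

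Over all genes, calls for the knockout mean went from 2286 to 1083 with DESeq2, 1447 with ERCC factors and 1421 in the fit of all 12 libraries. For KO1 they went from 1622 to 679 with DESeq2 and 858 with all 12, for KO2 from 1860 to 864, 1191 with ERCC factors and 1008 with all 12, and for KO1 against KO2 from 99 to 35 and 39 with all 12. From E16 to E17 they went from 975 to 14508 with ERCC factors and 1763 with all 12. Without 1 library they ranged from 859 to 1779 for KO1, 905 to 1869 for KO2, 41 to 45 for KO1 against KO2, 232 to 3645 from E16 to E17 and 3200 to 3684 for P7 against WT GSCs, where 4909 were called with all. The share higher among calls went with ERCC factors from 45.7% to 25.9% for KO1, 46.0% to 58.4% for KO2, 65.7% to 37.0% for KO1 against KO2, 24.8% to 99.986% from E16 to E17, 44.4% to 0.255% from E17 to P7, 51.7% to 16.2% for P7 and 56.5% to 98.9% for fetal cells against WT GSCs. In the fit of all 12 libraries it went from 44.9% to 31.5% for the knockout mean and to 30.4% for KO1, and for KO1 against KO2 to 82.1%, or 82.9% with DESeq2. A single count was worth 0.249 to 0.349 RPM in the GSC libraries, where 30 of 57 members were too low to test in the knockout comparison, and 0.523 to 0.578 RPM at E17, where 53 were tested against E16.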
